A study of Homo sapiens with 20 samples.

Results

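The HOX genes are described here across 20 microarrays of human HEK293 cells. They were chosen by name: every gene whose symbol is HOXA, HOXB, HOXC or HOXD followed by a number only, and which has a probe set annotated to it alone, was included, and where there were several the brightest across the 20 arrays stood for the gene. This gave 28 genes of 19353 in all, namely 1 of the HOXA cluster (HOXA2), 10 of the HOXB cluster, 9 of the HOXC cluster and 8 of the HOXD cluster. The RefSeq gene table lists 39 HOX genes, and the other 11 were not analysed here. All levels below are log2 values, so a difference of 1 is a doubling, and a level is compared only between groups for the same probe set.

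The study asked how mRNA levels respond when ZFP36, also called tristetraprolin, is made in excess. ZFP36 is an RNA-binding protein that promotes the decay of mRNAs carrying AU-rich elements. HEK293 is a cell line derived from human embryonic kidney, and the parental cells were of its Flp-In T-REx form, which carries a tetracycline repressor and a site for inserting a transgene. The EGFP-ZFP36 line is a stable derivative in which doxycycline switches on ZFP36 fused to the fluorescent protein EGFP, and the sources used here do not say whether it is a single clone. There were 4 groups of 5 arrays. Induced cells were EGFP-ZFP36 cells given 1 µg/ml doxycycline for 16 hours, and mock-induced cells were the same line given water. Parental cells received doxycycline or vehicle in the same way. According to the methods, flasks were pooled within a preparation, the experiment was repeated on 5 separate days and, at least for the parental cells, treated and untreated cultures were handled in pairs. The labels do not say that a replicate number marks such a pair. Sorting kept green cells of the induced preparation and non-green cells of the mock-induced one, and the flasks that had received doxycycline were sparser, with more cells rounded up or afloat, so excess ZFP36, the sort gate and cell density cannot be told apart in the comparison of induced with mock-induced cells. The methods also give different dilutions and growth times before treatment for the EGFP-ZFP36 and the parental cells. The line, the way it was made, its culture and its sort likewise cannot be told apart in the comparison of mock-induced with parental cells.

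HOX genes encode homeodomain transcription factors that give cells along the head-to-tail axis their positional identity. They lie in ordered clusters, and in the embryo the genes at the low-numbered end are expressed further toward the head while those at the high-numbered end mark the lumbar, sacral, limb and urogenital regions. Genes with the same number in different clusters are paralogues, meaning copies that descend from a shared ancestral gene. Adult and cultured cells keep a HOX pattern for many divisions through Polycomb complexes, which hold silent genes silent, and Trithorax or MLL complexes, which keep active genes active. In the embryonic kidney, HOX genes of the paralogue group at position 11 act with EYA1 and PAX2 to start the metanephric kidney.

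Promoter sequences are shown for some of the genes with a promoter window, which HOXB2, HOXB6 and HOXB13 lacked. They are those of HOXD8, which had the steepest fall after induction, and HOXD13, which was lower in the EGFP-ZFP36 line and fell again after induction. The others are HOXA2, which rose, and the window that HOXC4 and HOXC5 share in the annotation, since HOXC4 fell while HOXC5 was not called. Each line holds the 250 bases before the annotated transcription start (RefSeq, GRCh38.p14), written 5′ to 3′ on the strand of the gene, with CpG dinucleotides, the sites of DNA methylation, in capitals.
HOXD8, chr2:176129455-176129704, plus strand: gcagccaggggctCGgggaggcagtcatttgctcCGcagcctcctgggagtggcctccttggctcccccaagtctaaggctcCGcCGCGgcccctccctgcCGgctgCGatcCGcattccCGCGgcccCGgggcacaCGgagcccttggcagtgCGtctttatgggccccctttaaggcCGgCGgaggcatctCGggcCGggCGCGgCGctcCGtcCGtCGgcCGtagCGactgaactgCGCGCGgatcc
HOXD13, chr2:176092471-176092720, plus strand: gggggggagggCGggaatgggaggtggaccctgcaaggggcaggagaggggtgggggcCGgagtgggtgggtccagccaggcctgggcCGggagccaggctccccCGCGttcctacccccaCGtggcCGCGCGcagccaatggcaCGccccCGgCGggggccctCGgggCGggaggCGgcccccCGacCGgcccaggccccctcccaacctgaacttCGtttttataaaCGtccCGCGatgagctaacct
HOXA2, chr7:27102684-27102933, minus strand: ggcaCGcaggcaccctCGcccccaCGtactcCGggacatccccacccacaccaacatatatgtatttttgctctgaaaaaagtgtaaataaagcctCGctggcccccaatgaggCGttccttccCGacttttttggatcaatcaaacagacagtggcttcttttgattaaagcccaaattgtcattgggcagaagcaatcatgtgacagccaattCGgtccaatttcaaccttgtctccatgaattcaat
HOXC4 and HOXC5, chr12:54016638-54016887, plus strand: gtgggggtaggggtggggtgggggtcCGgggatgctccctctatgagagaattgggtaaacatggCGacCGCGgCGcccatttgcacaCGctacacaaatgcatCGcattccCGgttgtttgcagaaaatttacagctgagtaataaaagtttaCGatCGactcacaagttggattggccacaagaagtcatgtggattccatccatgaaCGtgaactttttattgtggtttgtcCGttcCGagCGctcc
The windows differ in CpG content. Counting these bases and the 50 that follow the start, the HOXD8 window held 34 CpGs and the HOXD13 window 24, the HOXC4 and HOXC5 window 15 and the HOXA2 window 11, beside a median of 14 over 35116 windows of 300 bases in the table. Windows were given for 11 of the 28 HOX genes, 10 of them distinct, with 4 CpGs in that of HOXD4 and 36 in that of HOXD1. The letters TGATNNAT, in which a HOX protein and its PBX partner can bind side by side, occurred on either strand in the windows of HOXA2, HOXB1 and HOXD11 and in 7.4% of all windows. The TATA box letters TATAAA occurred on either strand in the window of HOXD13 among these genes and in 11.53% of all windows. These matches describe the letters only, and no binding or methylation was measured here.

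The arrays were alike within groups, with each array correlating at 0.996 or above on average with the others of its group. Between groups, the share of probe sets at the lowest value averaged 37.0% in induced, 37.5% in mock-induced and 35.9% in parental vehicle samples. Induced against mock-induced and mock-induced against parental vehicle each gave an exact permutation p of 0.00794 (two-sided). The median of the tested genes read 9.22 ± 0.03 in mock-induced and 9.17 ± 0.02 in parental vehicle samples (exact permutation p = 0.0159, two-sided). Poly-A spike-in transcripts read 8.06 ± 0.21 (SD, n = 5) in induced and 7.74 ± 0.16 in mock-induced samples (exact permutation p = 0.0238, two-sided), while the hybridization controls read 12.19 ± 0.10 and 12.07 ± 0.12 (exact permutation p = 0.143, two-sided). ZFP36 itself read 5.42 ± 0.49 after induction, against 5.36 ± 0.43 with mock induction (n = 5 each) and 3.76 ± 0.58 and 3.45 ± 0.56 in parental cells with doxycycline and vehicle. The sources used here do not say whether the transgene carries the stretch that its probe set reads, so these levels are no check of the induction. The neurofilament and vimentin genes known from HEK293 cells were read at 9.52 or more in the EGFP-ZFP36 line for VIM, NEFL and INA, but NEFM read 12.27 in parental vehicle cells and 3.87 in mock-induced cells. Of the other HEK293 markers with a probe set, PAX2 read 2.77 in mock-induced, 2.60 in parental vehicle and 4.86 in induced cells. LHX1 was near the floor, with group means of 2.19 to 2.24. Blood cell markers with a probe set (5 of 7) all had a group mean below 4.5 in every group. Of 10 fibroblast and endothelial markers, COL1A2 and DCN were at the floor in every group within 0.01, and COL3A1 was the only entry tested.

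Of the 28 HOX genes, 25 had a mean above 4.5 in at least 1 group, the level below which the study treats a probe set as not expressed, and were tested. HOXB1, which patterns the hindbrain, and HOXC12 and HOXD12, from the tail end of their clusters, never read above 2.30 on any of the 20 arrays, where the lowest value of the files is 2.19. The tested genes took in every position along the clusters except 12: 4 anterior genes (positions 1 to 3), 11 central genes (positions 4 to 8) and 10 posterior genes (positions 9 to 13). HOXC8, which sets brachial and thoracic identity, passed the filter only through the mock-induced group, where its mean was 4.79, against 4.38 after induction and 4.49 and 4.44 in parental cells with doxycycline and vehicle. For 5 of the 25 genes the same value, to 4 decimals, came back on 3 or more arrays, as it did for 13.8% of all tested genes. HOXD9 read 7.02 on 9 arrays and HOXB4 read 5.92 on 8 arrays, so the spread of such genes within a group was not that of independent readings.

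After induction the HOX genes fell more often than they rose. In a limma model with Bonferroni adjustment over all 10834 tested genes and a threshold of 0.01, 10 HOX genes fell and 3 rose, and 12 were not called. Of all tested genes 51.9% were called, where 23.1% of all tested genes fell and 28.8% rose. The share of HOX genes called (52%) was thus near that of all genes. The share of HOX genes that fell (40%) lay above that of all genes, and the share that rose (12%) lay below it. The median log2 difference of the 25 genes was −0.77, beside 0.20 over all tested genes, and 20 of the 25 differences were negative. The genes that fell were HOXD8, HOXB6, HOXB2, HOXD13, HOXC4, HOXB8, HOXC6, HOXC10, HOXC9 and HOXD10, and those that rose were HOXB13, HOXA2 and HOXB9. In these bulk samples, fewer cells that express a gene and less RNA per cell cannot be told apart. Centring the arrays on the hybridization controls, the poly-A controls or the median of the tested genes gave 11, 15 and 11 falls and 3 rises each, where the poly-A centring moved the median of all genes from 0.20 to −0.12. With the replicate number as a block, 6 genes fell and 2 rose, and the calls of HOXD8, HOXA2, HOXB8, HOXC10 and HOXD10 were lost at unchanged differences. Because the HOX genes were named with results of these data already known, the counts are a description of the set.

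**Figure D1:**
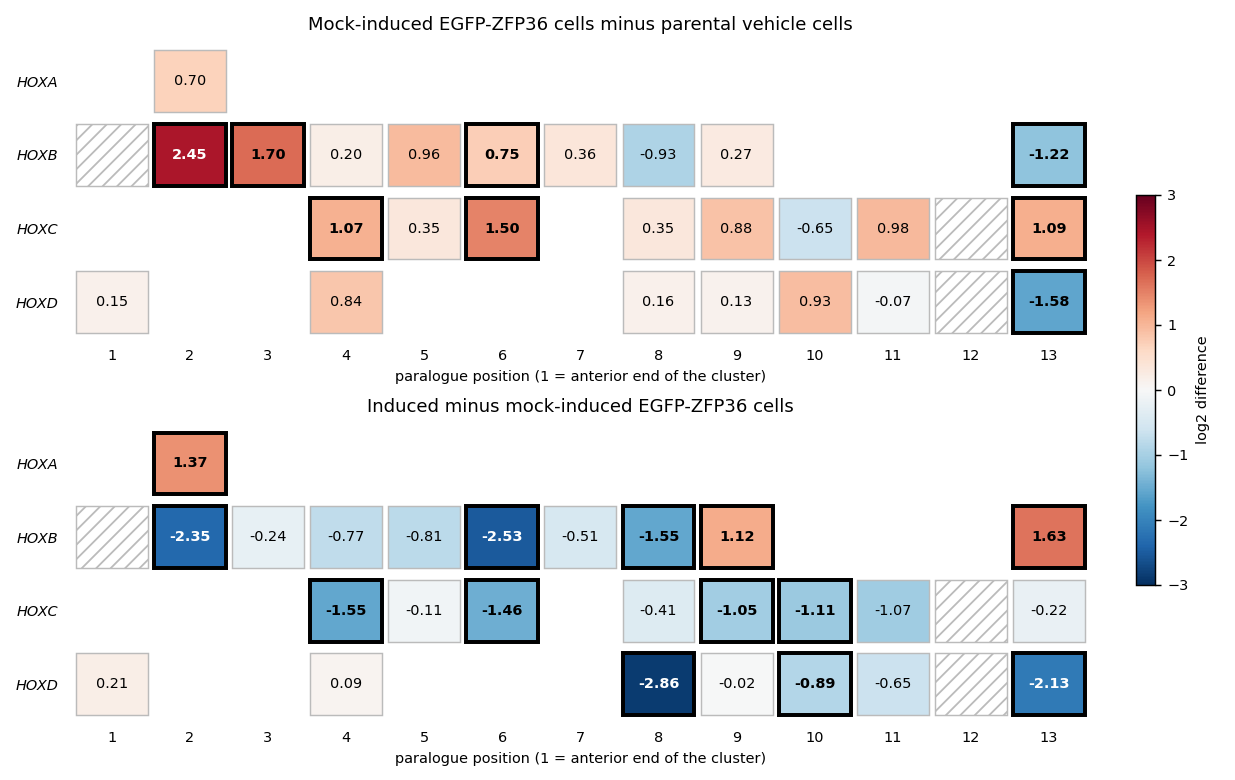
Log2 differences of the HOX genes by cluster (rows) and paralogue position (columns), for mock-induced minus parental vehicle cells (top) and induced minus mock-induced cells (bottom). Black frames mark calls at a Bonferroni-adjusted p under 0.01 (8 in the top panel, 13 in the bottom panel), hatched boxes are HOXB1, HOXC12 and HOXD12, which were below the filter, and positions left blank hold no HOX gene analysed here.

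Calls were found at both ends of the clusters and between them. By cluster, 3 of 9 tested HOXB genes fell and 2 rose, 4 of 8 HOXC genes fell and 0 rose, and 3 of 7 HOXD genes fell and 0 rose, while the only HOXA gene rose. By position, 1 of 4 anterior genes fell and 1 rose, 5 of 11 central genes fell and 0 rose, and 4 of 10 posterior genes fell and 2 rose. Paralogues did not move as a unit: at position 2 HOXA2 rose and HOXB2 fell, and at position 9 HOXB9 rose and HOXC9 fell. At position 13 HOXB13 rose by 1.63 and HOXD13 fell by 2.13, while HOXC13 differed by −0.22. At positions 6 and 10 both tested paralogues fell.

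Among the anterior genes, HOXB2 and HOXA2 were called in opposite directions. HOXB2, which helps to pattern the hindbrain and the facial motor neurons, read 9.12, 9.10, 8.86, 9.02 and 8.65 on the induced arrays and 11.35, 11.34, 11.15, 11.37 and 11.29 on the mock-induced arrays. Every induced array lay below every mock-induced array, a 5.10-fold fall (log2 difference −2.35, SE 0.09, limma Bonferroni-adjusted p = 4.86e-07). HOXA2, a selector gene of the branchial arches and hindbrain, read 7.11, 7.08, 6.85, 6.97 and 7.19 on the induced arrays and 5.59, 5.79, 5.70, 5.75 and 5.54 on the mock-induced arrays. The groups did not overlap, and HOXA2 was 2.58-fold higher after induction (log2 difference 1.37, SE 0.07, limma adjusted p = 1.60e-05). Parental arrays of HOXA2 were lower still, between 4.59 and 5.15. HOXB3, another hindbrain gene, differed by −0.24 (95% interval −0.36 to −0.12) and HOXD1 by 0.21 (−0.07 to 0.48), neither of which was called.

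HOXD8 and HOXB6, both central genes, had the largest falls, followed by the anterior gene HOXB2 (−2.35) and the posterior gene HOXD13 (−2.13). HOXD8 read 3.65, 4.54, 4.52, 4.58 and 4.52 on the induced arrays and 7.43, 7.17, 7.08, 7.22 and 7.23 on the mock-induced arrays. The induced arrays thus sat around the filter level of 4.5, with replicate 1 apart from the other 4, and the fall was 7.28-fold (log2 difference −2.86, SE 0.17, limma adjusted p = 4.02e-05). HOXB6 read 8.31, 8.33, 8.01, 8.02 and 7.97 against 10.63, 10.58, 10.63, 10.76 and 10.69. All its induced arrays lay below every array of the other 3 groups, and it fell 5.77-fold (log2 difference −2.53, SE 0.08, limma adjusted p = 7.14e-08, the smallest among the HOX genes). HOXB8, which can hold myeloid progenitors in self-renewal when overexpressed, read 5.11, 5.03, 4.90, 4.98 and 4.51 after induction and 6.23, 6.32, 6.36, 6.83 and 6.56 in mock-induced cells. Its 2.93-fold fall did not overlap between groups, but the call was lost without induced replicate 2, 3 or 4 or mock replicate 2, 3 or 5, with differences then of −1.59 to −1.53.

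HOXC4 and HOXC6 fell together, and both stood highest in mock-induced cells. HOXC4 read 10.50, 10.26, 10.42, 10.48 and 10.35 after induction and 12.13, 11.74, 12.00, 12.01 and 11.89 in mock-induced cells. HOXC6 read 11.82, 11.72, 11.63, 11.54 and 11.80 after induction and 13.23, 13.14, 13.07, 13.18 and 13.20 in mock-induced cells. Neither gene's groups overlapped, and the falls were 2.94-fold for HOXC4 (log2 difference −1.55, SE 0.08) and 2.75-fold for HOXC6 (−1.46, SE 0.06). HOXC5, whose annotated start is the same as that of HOXC4, read between 6.62 and 7.06 in induced and between 6.62 and 7.16 in mock-induced cells, with a difference of −0.11 (95% interval −0.36 to 0.14).

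The remaining central genes were not called. HOXB4, known for expanding blood stem cells, HOXB5 and HOXB7, which is expressed in the ureteric bud of the kidney, had induced arrays that all lay below the mock-induced arrays, with differences of −0.77, −0.81 and −0.51 and adjusted p-values of 0.262, 0.399 and 0.0554 in limma. HOXC8 differed by −0.41 with overlapping groups, and 4 of its 5 induced arrays read under 4.5. HOXD4 differed by 0.09 (95% interval −0.18 to 0.35). The intervals of HOXC5 and HOXD4 do not show that these genes were unaffected, since a fall of HOXC5 down to −0.36 and a rise of HOXD4 up to 0.35 lie within them.

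Posterior genes moved in both directions. HOXD13, which shapes the digits and the urogenital tract, read 7.95, 7.84, 7.67, 7.93 and 7.52 after induction and 9.97, 9.98, 9.80, 10.01 and 9.79 in mock-induced cells, a 4.37-fold fall (log2 difference −2.13, SE 0.09, limma adjusted p = 1.26e-06). HOXB13, which acts in the prostate and in tail growth, read 7.18, 7.28, 6.77, 7.03 and 6.97 after induction and 5.46, 5.47, 5.38, 5.38 and 5.37 in mock-induced cells, a 3.10-fold rise (1.63, SE 0.09, limma adjusted p = 1.30e-05). For both genes no induced array reached into the mock-induced range. HOXB9, a gene of the thoracic skeleton, read 10.95, 10.74, 10.68, 10.94 and 10.84 against 9.73, 9.65, 9.70, 9.72 and 9.73. It rose 2.18-fold, and its induced arrays lay above all arrays of the other 3 groups, the highest of which read 9.77.

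Falls of a smaller size were called for HOXC9, HOXC10 and HOXD10, genes that set thoracic and lumbar motor neuron identity. HOXC9 read 8.48, 8.39, 8.13, 8.30 and 8.14 after induction and 9.42, 9.38, 9.28, 9.41 and 9.23 in mock-induced cells. HOXC10 read 4.92, 4.91, 4.77, 4.91 and 4.88 against 6.04, 5.69, 6.06, 6.06 and 6.07. The induced values of HOXC10 were near the filter level, and mock-induced replicate 2 was the low array of its group. HOXD10 read 11.51, 11.68, 11.26, 11.41 and 11.54 against 12.37, 12.32, 12.36, 12.47 and 12.33. The falls were 2.08-fold, 2.16-fold and 1.85-fold in this order, with no overlap between groups. HOXC11 and HOXD11, paralogues of the kidney-initiating group, had lower induced than mock-induced arrays without overlap, yet missed the threshold (differences −1.07 and −0.65, limma adjusted p = 0.212 and 0.0256). HOXC13, a hair and nail gene, and HOXD9 differed by −0.22 and −0.02 (95% interval for HOXD9 −0.16 to 0.12), with overlapping groups.

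In all, 19 of the 25 genes had induced and mock-induced arrays that did not overlap, of which 13 were called. Over all tested genes 80% had groups that did not overlap, so the HOX share of 76% was close to the background.

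**Figure D2:**
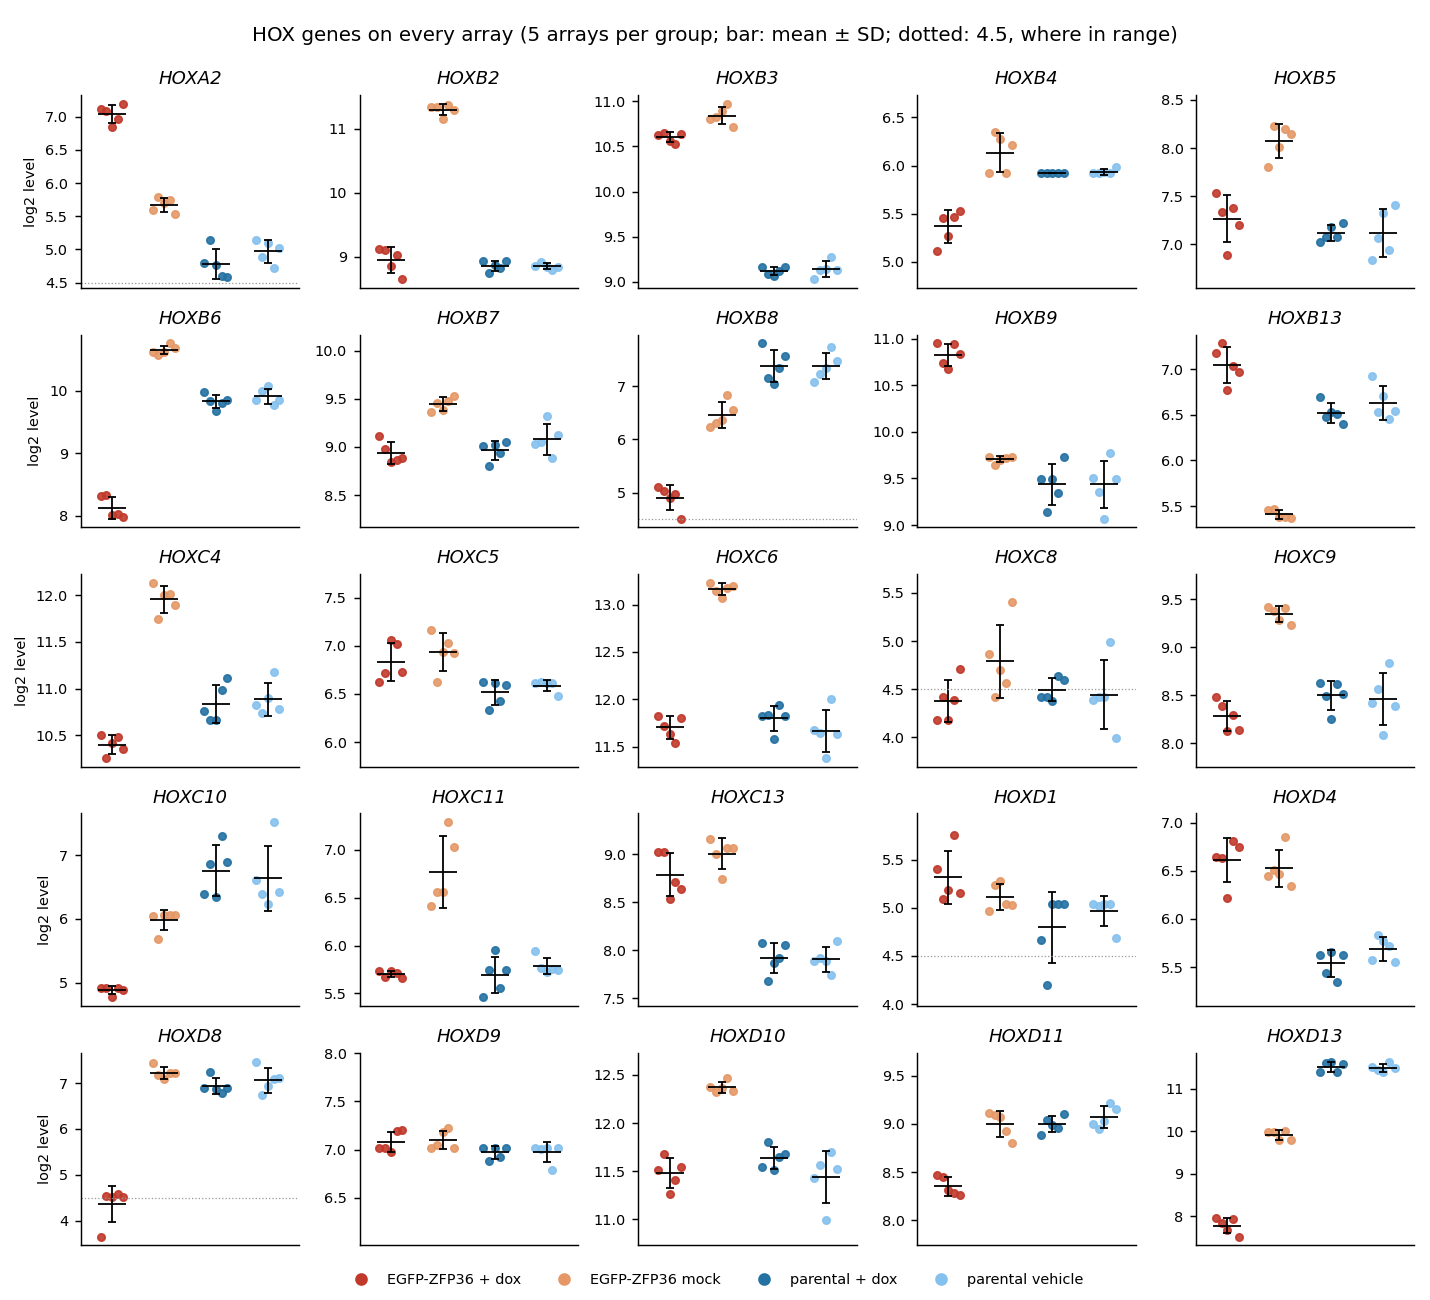
Log2 levels of the 25 tested HOX genes on each of the 20 arrays, by group, with the mean and SD of 5 arrays in black and a dotted line at the filter level of 4.5 where it falls in the range. HOXB2, HOXC4, HOXC6 and HOXB6 are highest in mock-induced cells, whereas HOXD13 steps down from parental to mock-induced to induced cells.

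The same mock-induced arrays differed from parental vehicle arrays at several HOX genes before any doxycycline. In limma 6 genes were higher in mock-induced cells (HOXB2, HOXB3, HOXC6, HOXC13, HOXC4 and HOXB6) and 2 were lower (HOXD13 and HOXB13), while 17 were not called. Over all tested genes 24% were called, 13.2% higher and 10.9% lower, against 32%, 24% and 8% of the HOX genes. The median difference of the HOX genes was 0.36, beside 0.00 over all genes. With the replicate number as a block 5 genes were called, with HOXB13, HOXB6, HOXC13 and HOXC4 lost and HOXB8 (−0.93) gained. By cluster, 3 of 9 HOXB genes and 3 of 8 HOXC genes were higher, 1 HOXB gene and 1 of 7 HOXD genes were lower, and both lower genes were at position 13.

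HOXB2 had the largest line difference of the set. Its parental vehicle arrays read 8.86, 8.92, 8.84, 8.80 and 8.84, so mock-induced cells were 5.46-fold higher (log2 difference 2.45, SE 0.05, limma adjusted p = 1.09e-09). HOXB3, its neighbour in the cluster, read 10.80, 10.83, 10.89, 10.97 and 10.72 in mock-induced and 9.03, 9.13, 9.14, 9.28 and 9.13 in parental vehicle cells. HOXB3 was 3.25-fold higher (1.70, SE 0.06, limma adjusted p = 3.50e-07), and its induced arrays (10.53 to 10.65) stayed above every parental array. HOXB2, in contrast, was at 8.65 to 9.12 after induction, a range that takes in all 5 parental vehicle arrays.

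In the HOXC cluster the parental vehicle arrays of HOXC6 read 11.67, 11.64, 11.38, 12.00 and 11.63, and mock-induced cells were 2.83-fold higher (log2 difference 1.50, SE 0.09, limma adjusted p = 1.10e-04). HOXC13 read 9.16, 9.00, 8.74, 9.06 and 9.06 in mock-induced and 7.89, 7.92, 7.89, 7.74 and 8.10 in parental vehicle cells, 2.13-fold higher without overlap. HOXC4 read 10.83, 10.74, 10.90, 11.18 and 10.78 in parental vehicle cells and was 2.10-fold higher in mock-induced cells. The call of HOXC4 was lost without mock replicate 1, 3, 4 or 5 or without parental vehicle replicate 1, 2, 3 or 5, with differences then of 1.02 to 1.08. HOXB6 read 9.86, 10.00, 10.07, 9.77 and 9.85 in parental vehicle cells and was 1.68-fold higher in mock-induced cells, a call lost without mock replicate 1, 3, 4 or 5 or parental vehicle replicate 1 or 5 (differences 0.72 to 0.76).

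The posterior genes HOXD13 and HOXB13 were lower in the EGFP-ZFP36 line. HOXD13 read 11.51, 11.43, 11.39, 11.62 and 11.49 in parental vehicle cells, 2.99-fold above mock-induced cells (log2 difference −1.58, SE 0.06, limma adjusted p = 1.01e-06). HOXB13 read 6.92, 6.53, 6.71, 6.45 and 6.54 in parental vehicle cells, 2.33-fold above mock-induced cells (−1.22, SE 0.08, limma adjusted p = 2.10e-04). Neither gene's groups overlapped. After induction HOXB13 read 6.77 to 7.28, which reaches into the parental range, whereas HOXD13 at 7.52 to 7.95 was further from it than before.

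A further 10 genes had mock-induced and parental vehicle arrays that did not overlap without being called, which makes 18 of 25 in all (72%), where 63.3% of all tested genes did not overlap. Those nearest the threshold were HOXD4 with a difference of 0.84 (limma adjusted p = 0.0383), HOXA2 with 0.70 (0.0588), HOXD10 with 0.93 (0.067) and HOXB5 with 0.96 (0.102). HOXB8 and HOXC10 were lower in mock-induced cells by values of −0.93 and −0.65 that were not called. The groups of HOXB4, HOXB9, HOXC8, HOXD1, HOXD8, HOXD9 and HOXD11 overlapped, and for HOXD8 the 95% interval of the line difference was −0.11 to 0.43.

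The comparison after induction and the comparison between lines share the mock-induced arrays, so their values are set side by side without a test of how they relate. HOXB2 differed by 2.45 between lines and by −2.35 after induction, HOXC6 by 1.50 and −1.46, HOXC4 by 1.07 and −1.55, and HOXB6 by 0.75 and −2.53. HOXB3 and HOXC13 were higher between lines and not called after induction. HOXB13 differed by −1.22 and 1.63, and HOXD13 by −1.58 and −2.13. Of the other genes, HOXB8, HOXC9, HOXC10, HOXD8 and HOXD10 fell and HOXA2 and HOXB9 rose after induction without a called line difference, and 10 were called in neither comparison.

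Doxycycline alone was tested in parental cells. None of the 25 HOX genes was called by limma (0 of 25, background 0%), and 0 had an unadjusted p under 0.05, where 241 of all 10834 tested genes did. The differences ran from −0.19 for HOXA2 (95% interval −0.45 to 0.07) to 0.19 for HOXD10 (−0.07 to 0.46), and for every gene the parental groups overlapped. Over the 25 genes the 95% intervals reached no lower than −0.53 and no higher than 0.69, so larger changes lie outside them. HOXB4 was read at 5.92 on every parental array with doxycycline, a repeated value that gives no measure of spread.

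The difference between the responses of the 2 lines was tested as an interaction over all 20 arrays. It was called for 12 HOX genes, 9 with a lower and 3 with a higher response in EGFP-ZFP36 cells (48%, 36% and 12%), beside 47.9% of all tested genes, 22.1% lower and 25.8% higher. The interaction was −2.73 for HOXD8, −2.45 for HOXB6, −2.36 for HOXB2 and −2.16 for HOXD13, with SEs of 0.10 to 0.22. It was 1.75 for HOXB13 and 1.56 for HOXA2. HOXC10 was called after induction but not in the interaction (−1.23, SE 0.28, limma adjusted p = 1), and its parental arrays spread from 6.24 to 7.52. Centring the arrays on the poly-A controls lost the calls of HOXA2, HOXB8, HOXB9, HOXC4, HOXC6, HOXC9 and HOXD10. Centring on the hybridization controls lost those of HOXA2 and HOXB9, and the replicate number as a block ended those of HOXB8, HOXB9 and HOXD10. Of the 20 fits that each leave out 1 array, 16, 15, 16 and 13 lost the calls of HOXB8, HOXB9, HOXC9 and HOXD10, although the estimates stayed within −1.61 to −1.45, 1.09 to 1.15, −1.12 to −1.05 and −1.10 to −1.03.

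**Figure D3:**
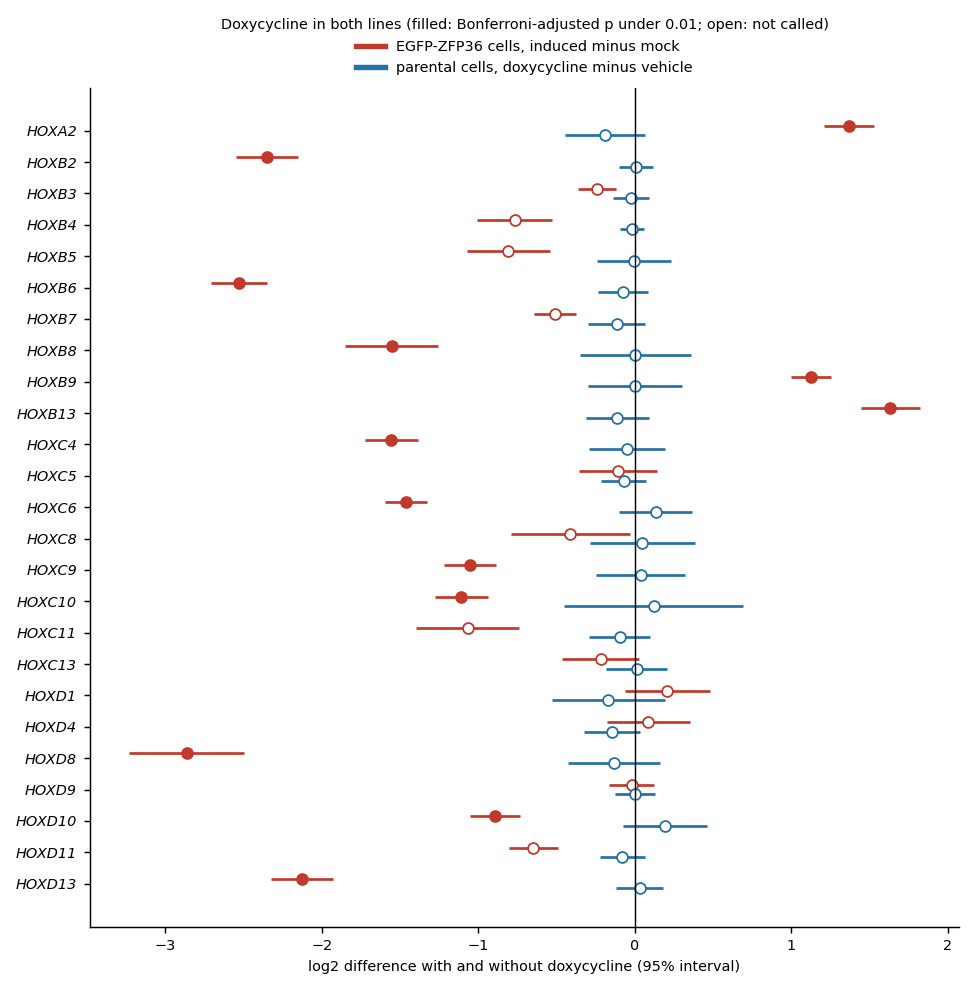
Log2 difference with and without doxycycline for each tested HOX gene, in EGFP-ZFP36 cells (red) and parental cells (blue), with 95% intervals from limma on 5 against 5 arrays. Filled points passed a Bonferroni-adjusted p under 0.01, which 13 genes did in EGFP-ZFP36 cells and 0 in parental cells.

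Where a gene had further probe sets with a group mean above 4.5, these could be set beside the one used. The further probe sets of HOXB6, HOXB8, HOXB13, HOXD1 and HOXD9 lay below 4.5 in every group and were not tested. That of HOXB6 had group means of 2.19 to 2.22 and that of HOXB8 of 2.19, so the calls of these genes rest on the probe set used. The 3 probe sets of HOXD13 all read lower in the EGFP-ZFP36 line without doxycycline than in the parental vehicle group, and lower again after induction, by −2.13, −1.75 and −1.79, and the 2 with the higher signal were called in both comparisons when all 18639 probe sets above the filter were tested. The 3 probe sets of HOXD10 read lower after induction by −0.89, −0.91 and −0.59, of which only the first, the one used, was called. The 2 of HOXB7 read lower by −0.51 each, neither of them called. The second probe set of HOXB3 differed less between lines (0.47, not called) than the one used (1.70), and it read near the filter level in every group. For HOXD4 the second probe set differed by 0.66 after induction against 0.09 for the one used, neither of them called. A probe set annotated to HOXD3, HOXD4 and another locus together, which was left out of the gene values, read 6.68 ± 0.24 with mock induction and 6.20 ± 0.08 after induction.

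**Figure D4:**
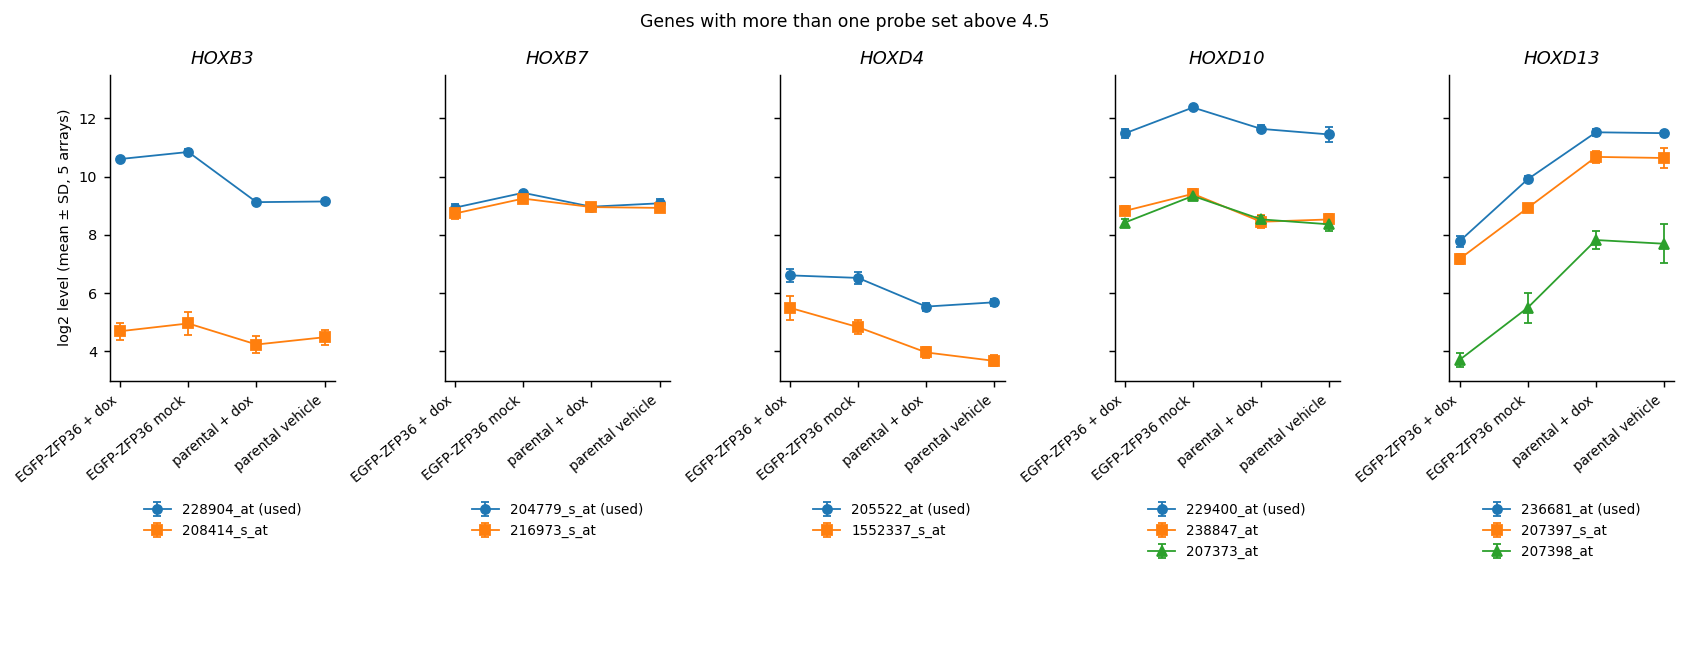
Mean log2 level ± SD (5 arrays) in the 4 groups for every probe set with a group mean above 4.5, for the 5 HOX genes that have more than 1. The 3 probe sets of HOXD13 step down from parental to mock-induced to induced cells, and the 3 of HOXD10 are highest in mock-induced cells. The second probe set of HOXB3 has group means of 4.24 to 4.96.

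Gene lists were set beside the HOX genes, each to be read against all tested genes, of which 23.1% fell and 28.8% rose after induction (median 0.20), while 13.2% were higher and 10.9% lower between lines (median 0.00). Of 18 non-coding genes of the HOX clusters 11 had a probe set naming them alone and 7 were tested. After induction 3 fell (42.9%) and 0 rose (median −0.95), and between lines 4 were higher (57.1%) and 1 lower (14.3%) in mock-induced cells (median 1.75). HOTAIR, a long non-coding RNA made from the HOXC cluster, read 6.76 in parental vehicle cells, 9.99 in mock-induced cells and 7.78 after induction, where it fell 4.64-fold (log2 difference −2.21, SE 0.10). HOXA11-AS, an antisense transcript of the HOXA cluster, differed by −1.86 after induction and by 2.06 between lines, and HOXB-AS3 by −1.21 and 1.75, all of them called. HOXD-AS2 was called lower in the EGFP-ZFP36 line, at least 2.67-fold, with every mock-induced array under 4.5. It also read below 4.5 after induction, so no fold is given for that comparison. Antisense transcripts overlap or adjoin HOX genes, and the strand each probe set reads was not checked here.

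The PBX, MEIS and PKNOX cofactors, homeodomain proteins that bind DNA together with HOX proteins, did not move as a group. Of 6 tested, PBX2 rose by 1.17 and PKNOX1 fell by 1.01 after induction, 16.7% in each direction, and the values of PBX3 (−0.43), MEIS1 (0.18), MEIS2 (−0.54) and PKNOX2 (−0.38) were not called. Between lines PKNOX1 was higher by 1.38 and MEIS1 and PKNOX2 were lower, with differences of −1.03 and −2.39. PBX4 and MEIS3 had group means below 4.5.

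Polycomb genes moved in both directions. Of 11 genes of Polycomb repressive complex 2, which methylates histone H3 on silent genes, 3 fell (27.3%) and 7 rose (63.6%) after induction (median 0.61). SUZ12 and RBBP4 fell, with differences of −0.78 and −0.79, while EED rose by 1.30 and EZH1, the less active of the catalytic subunits, by 1.11. Of 14 tested genes of Polycomb repressive complex 1, which binds those marks and compacts chromatin, 5 fell and 5 rose (35.7% each, median 0.43): PCGF5, PCGF3 and RYBP fell, with differences of −2.22, −2.02 and −1.43, and PHC1 rose by 2.28. Between lines 1 gene of complex 2 was higher (SUZ12, 0.82) and 1 lower (EED, −0.52), and in complex 1 PCGF5 was higher by 0.95 while CBX2 and PHC2 were lower, with differences of −0.63 and −1.24.

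The MLL and COMPASS list holds histone methyltransferases that mark active HOX genes and the subunits and elongation factors that work with them. After induction 3 of 15 tested fell (20%) and 4 rose (26.7%), with a median of −0.07. DPY30, a core subunit, and AFF4, of the elongation machinery, fell, with differences of −1.62 and −1.50. MEN1, which tethers MLL proteins to HOX promoters, rose by 1.32, WDR5 by 1.05 and MLLT1 by 0.94. Between lines KMT2B and AFF4 were higher by 1.03 and 0.70, and MEN1 differed by −0.82.

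Upstream HOX regulators include the CDX factors and the enzymes and receptors of retinoic acid, the vitamin A derivative that opens HOX clusters from the anterior end. After induction 3 of 14 tested fell and 3 rose (21.4% each, median −0.18). ALDH1A2, which makes retinoic acid, fell 6.31-fold from 12.21 to 9.55 after being 1.46 higher between lines. The TGF-beta receptor gene TGFBR1 and GMNN fell, with differences of −2.51 and −1.32, and the retinoid receptor gene RXRB rose by 1.63. CYP26A1, which breaks retinoic acid down, read 9.52 in parental vehicle cells, 7.86 in mock-induced and 5.70 in induced cells, where the line difference of −1.66 and the interaction of −2.19 were called, but not the difference after induction.

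Embryonic kidney genes that act below or beside the HOX genes fell in 5 of 10 tested (50%) and rose in 1 (10%), with a median of −0.82. ITGA8, an integrin of the kidney mesenchyme, fell 14.5-fold from 8.16 to 4.31, its induced arrays reading 4.09 to 4.59. It passed the filter of 4.5 only through the mock-induced group. WT1, SIX4, FOXD1 and EYA1 fell, with differences of −1.46, −1.40, −1.13 and −1.06. The gene that rose was PAX2, which passed the filter only through the induced group (4.86, against 2.77 in mock-induced cells). Between lines ITGA8 was at least 12.7-fold higher in mock-induced cells, all parental vehicle arrays reading under 4.5, and GATA3 was higher by 2.78. EYA1 and the nephron progenitor genes SIX2 and CITED1 were lower, with differences of −1.55, −3.44 and −5.75. Of 13 tested protein-coding genes that flank the clusters, 4 fell and 4 rose after induction (30.8% each, median 0.05). SKAP2, beside the HOXA cluster, fell 13.7-fold from 11.59 to 7.81, HIBADH and MTX2, which lie beside the HOXA and HOXD clusters, differed by −2.15 and −2.60, and CALCOCO2, near the HOXB cluster, rose by 1.42. SKAP2 was also the flanking gene called higher between lines (0.91), and ATP5MC3 was the one called lower (−0.70).

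Of the 10 fibroblast and endothelial markers, COL3A1, the 1 that was tested, rose 8.47-fold after induction, from 5.09 to 8.17. PDGFRA read 4.08 and 3.36 in induced and mock-induced cells, below the filter, and the other 8 had means of 2.19 to 2.29 in these groups. The mean level of all 10 ran from 2.93 to 3.01 on the induced arrays and from 2.54 to 2.73 on the mock-induced arrays. The blood cell markers had a mean level of 2.19 on all induced and mock-induced arrays. Of the HEK293 markers 3 of 5 tested rose after induction, namely NEFL by 0.63 and NEFM and PAX2 from below 4.5 in mock-induced cells, by at least 2.47-fold and 1.29-fold. Their part in the HOX differences was not tested.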

How the data were processed

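RNA of 20 samples was measured on Affymetrix Human Genome U133 Plus 2.0 arrays, 5 for each of 4 groups, and all groups came from the sample labels. Deposited were log2 values that the authors had obtained with GCRMA (no version is named in the sources used here) for 50441 probe sets. They run from 2.19 to 16.6, and 36.6% sit at the lowest value. Background adjustment by GCRMA can return one value on several arrays for dim probes. Gene names came from the annotation table of the platform: 38070 name 1 gene, 1423 several, 10886 none and 62 are controls, and 38018 of the first were found in the RefSeq gene table with 0 symbols changed. The brightest probe set stood for a gene (19353 genes). Following the study's filter, 10834 genes entered the tests because some group averaged over 4.5.

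Induced against mock-induced, mock-induced against parental vehicle and parental doxycycline against parental vehicle arrays were each compared with limma (version 3.58.1, R 4.3.3; functions lmFit and eBayes on the 10 arrays concerned), and the interaction was fitted over all 20 arrays. Calls required an adjusted p under 0.01 after Bonferroni correction over all tested genes, as in the study. Folds are 2 to the power of the log2 difference, and where all arrays of the lower group were under 4.5 the fold is a bound computed from 4.5. Array-wide values were compared with exact permutation tests, whose smallest p is 0.00794. The number of arrays limits the precision. Tables and figures were made in Python 3.11.15 (pandas 2.3.3, numpy 2.4.6, matplotlib 3.10.9, scipy 1.17.1).

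The HOX genes and the gene lists (153 entries, 133 with a probe set, of cofactors, chromatin complexes, upstream regulators, kidney genes, cluster non-coding and flanking genes and cell markers) were chosen with earlier results of these data known, so no set test was made. Every HOX gene is named, as are all tested cofactors, and from the other lists up to 4 genes with the smallest p after induction and up to 3 between lines, and values of other genes were added after they were seen. Alternatives changed the filter, the probe set, the centring, the threshold, the variance model, the samples in the fit and the replicate number as a block, and left out each array in turn.

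The replicate numbers of the labels were checked for pairing. The deviations of same-numbered induced and mock-induced arrays from their group means correlated at 0.0155 to 0.220 across genes, those of the parental groups at −0.0604 to 0.183, and those of mock-induced and parental vehicle arrays at −0.0207 to 0.113, so the numbers were not taken to pair the samples.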

Additional observations from a re-analysis of the deposited data

Results flagged for a closer look

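Among 100 groups of 5 arrays of the 25 tested HOX genes, 9 held an array that lay far from its group, where chance gives about 1 in 20. HOXD8 read 3.65 on induced replicate 1, against 4.52 on the next array, and 7.24 on parental doxycycline replicate 2. HOXC10 read 5.69 on mock-induced replicate 2, against 6.04 on the next. In parental vehicle cells the far arrays read 6.48 for HOXC5, 5.94 for HOXC11, 4.69 for HOXD1, 6.79 for HOXD9 and 5.99 for HOXB4. HOXB4 was also far on a parental doxycycline array at 5.92, but the whole group read 5.92 to 2 decimals. One repeated value came back for HOXB4 on 4 parental doxycycline arrays and 3 parental vehicle arrays, for HOXD1 on 3 parental vehicle arrays and for HOXD9 on 2.

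The response to doxycycline differed between the lines, by an interaction term in limma at an adjusted p under 0.01, for 12 HOX genes. It was −2.73 for HOXD8, −2.45 for HOXB6, −2.36 for HOXB2, −2.16 for HOXD13, −1.59 for HOXC6, −1.56 for HOXB8, −1.50 for HOXC4, −1.09 for HOXC9 and −1.08 for HOXD10. It was 1.75 for HOXB13, 1.56 for HOXA2 and 1.12 for HOXB9.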

How the results depend on the processing

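No called difference of a HOX gene changed direction under any alternative. After induction (13 called) 8 genes stayed called in every alternative that tested them: HOXB2, HOXB6, HOXB9, HOXB13, HOXC4, HOXC6, HOXC9 and HOXD13. Between lines (8 called) 4 did: HOXB2, HOXB3, HOXC6 and HOXD13. In the interaction (12 called) 5 did: HOXB2, HOXB6, HOXB13, HOXD8 and HOXD13. Of the called genes, HOXB6, HOXB8, HOXC6 and HOXC13 were not tested after dropping the _s_at and _x_at probe sets. At a Benjamini-Hochberg adjusted p under 0.05 in place of the Bonferroni threshold, 20 genes were called after induction, 19 between lines and 19 in the interaction. Centring on the poly-A controls left 4 calls between lines (1 lower and 3 higher) and 5 in the interaction (4 lower and 1 higher), and called 18 after induction, and across all genes it turned the split after induction from 2500 falls and 3123 rises to 3276 and 1991. Centring on the hybridization controls gave 10 lower and 1 higher in the interaction. Between lines 5 genes were called without an expression filter, 5 after dropping the _s_at and _x_at probe sets, which leaves 18 genes, and 13 with all 20 arrays in the model. Without the filter 11 genes were called after induction and 8 in the interaction. Without the _s_at and _x_at probe sets 10 were called after induction and 9 in the interaction. Leaving out 1 array at a time gave 12 to 13 calls after induction, 6 to 8 between lines, 8 to 12 in the interaction and 0 in parental cells. Parental cells had 0 calls in every alternative, and 19 of the 25 differences there changed sign in at least 1, as did 3 uncalled differences after induction and 2 in the interaction. The cause of these shifts was not tested.

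With the replicate number as a block, 8 HOX genes were called after induction (6 fell and 2 rose), 5 between lines and 9 in the interaction, and 3751 instead of 5623 genes were called after induction in all. Of the 5 arrays in a group, 3 induced arrays correlated best with the mock-induced array of their own number, and 2 parental doxycycline and 2 mock-induced arrays with the parental vehicle array of theirs. Signal over background was small for HOXA2, HOXB8, HOXC8, HOXC10, HOXD1 and HOXD8, each of which had a group mean within 0.50 of the filter level.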
